A study of Mus musculus with 12 samples.

Results

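In mouse embryonic stem (ES) cells sampled at days 0, 2, 4 and 6, a group of 45 protein-coding genes was expressed at day 0 and stood at least 8-fold lower at each of days 2, 4 and 6. The genes were chosen by their measured levels. Each had a mean of at least 5 counts per 1e6 counts of the library (CPM) at day 0 and a mean at each of days 2, 4 and 6 of at most 12.5% of its own day 0 mean. That left 45 of 10427 protein-coding genes with at least 5 CPM at day 0, out of 55335 genes counted, after 5 others that meet the same limits (Tdgf1, Fgf4, Trp73, Nectin4 and Tcl1) were left out by name. The low levels at days 2, 4 and 6 against day 0 are therefore how the genes were picked and are described here without a test.

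Polyadenylated RNA was sequenced from 12 libraries of mouse ES cells, with 3 libraries per day. All groups share the same labels apart from the day: medium with KnockOut Serum Replacement, LIF (leukaemia inhibitory factor, which supports self-renewal of ES cells), and plates coated with gelatin and, typically, irradiated embryonic fibroblasts of mouse as feeders. The treatment that separates day 0 from the later days is not given in the sources used here. Separate cultures are not stated for the libraries of a day, so tests here weigh differences only against library-to-library spread, part or all of which could be technical.

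In units of 1e6 counts, library totals were 8.08 to 9.48 at day 0, 10.6 to 12.8 at day 2, 6.95 to 10.2 at day 4 and 9.17 to 13.3 at day 6. The ES cell markers Pou5f1, Sox2 and Nanog stood at 278 to 303, 64.9 to 70.7 and 7.60 to 10.3 CPM at day 6, against 1330 to 1422, 659 to 684 and 257 to 260 CPM at day 0. Summed CPM of 16 fibroblast markers, which the feeder cells would also express, was 128 to 135 at day 0, 318 to 334 at day 2, 265 to 270 at day 4 and 436 to 473 at day 6. The sum does not describe each marker. From day 0 to day 2 the median library went from 60.4 to 239 CPM for Vim. It went from 10.6 to 1.88 CPM for Thy1 and from 21.3 to 4.39 CPM for Col6a1. Of 13 such markers tested at day 2 against day 0, 5 were called higher and 4 lower. At day 6 against day 0, 10 were higher and 3 lower. The part of feeder cells in the results was not tested. In RNA from whole cultures, fewer cells expressing a gene and less of its RNA per cell cannot be told apart.

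The group is not a known pathway. It holds genes best known from differentiated tissues, among them genes of the epidermis, the kidney filter, neurons, blood cells and sperm, beside a few with known roles in early embryos. Mouse ES cells are known to transcribe some such tissue genes while they self-renew. Promoters differ in their density of CpG, the dinucleotide at which vertebrate DNA is mostly methylated. Those dense in CpG usually belong to broadly expressed genes and those poor in CpG more often to tissue-restricted ones.

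Promoter windows of 300 bases, from 250 before to 50 after the RefSeq start of the gene (GRCm38.p6), were matched by symbol for 31 of the 45 genes. The RefSeq start can lie away from the ends of the GENCODE gene given with the values. Of the windows shown, those of Nphs1, Khdc3, Fam81a and Dtx1 lie wholly inside the GENCODE gene, and that of Krt42 wholly before it. Also among the 31, the windows of Jakmip1, Gm1043, Cd80, Dnah17, Rasgrp2, Rin1 and Tgm1 lie wholly inside their genes. Those of Sox15 and Hmcn2 lie wholly before theirs. The CpG and motif shares of the group include all these windows. The windows shown are 4 with few CpG dinucleotides and, for contrast, 2 with many. They are written 5′ to 3′ along the strand of the gene with each CpG in capitals.
Nphs1 promoter, chr7:30459808-30460107, plus strand: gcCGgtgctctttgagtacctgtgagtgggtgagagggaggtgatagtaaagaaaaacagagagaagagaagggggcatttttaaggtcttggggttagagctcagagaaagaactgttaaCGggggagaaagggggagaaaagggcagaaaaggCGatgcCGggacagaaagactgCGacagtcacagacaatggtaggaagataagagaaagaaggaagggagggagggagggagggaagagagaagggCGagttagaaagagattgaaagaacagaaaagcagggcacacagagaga
Krt42 promoter, chr11:100269902-100270201, minus strand: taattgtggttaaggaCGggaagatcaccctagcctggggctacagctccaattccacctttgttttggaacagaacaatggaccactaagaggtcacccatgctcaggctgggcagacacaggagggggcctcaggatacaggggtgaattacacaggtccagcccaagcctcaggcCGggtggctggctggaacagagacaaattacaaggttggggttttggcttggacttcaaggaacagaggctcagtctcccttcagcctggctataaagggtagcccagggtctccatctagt
Sfn promoter, chr4:133602119-133602418, minus strand: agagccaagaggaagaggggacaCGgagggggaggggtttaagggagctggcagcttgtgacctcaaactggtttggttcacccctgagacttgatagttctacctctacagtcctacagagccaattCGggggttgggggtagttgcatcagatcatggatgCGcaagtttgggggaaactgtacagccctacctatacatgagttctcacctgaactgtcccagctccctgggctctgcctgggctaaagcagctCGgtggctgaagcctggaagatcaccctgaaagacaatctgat
Khdc3 promoter, chr9:73102148-73102447, plus strand: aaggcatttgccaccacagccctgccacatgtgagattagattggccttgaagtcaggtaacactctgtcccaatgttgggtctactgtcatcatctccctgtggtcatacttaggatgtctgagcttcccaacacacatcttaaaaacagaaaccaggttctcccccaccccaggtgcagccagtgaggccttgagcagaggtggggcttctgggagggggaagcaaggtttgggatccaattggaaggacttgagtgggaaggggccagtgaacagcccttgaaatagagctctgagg
Fam81a promoter, chr9:70141508-70141807, minus strand: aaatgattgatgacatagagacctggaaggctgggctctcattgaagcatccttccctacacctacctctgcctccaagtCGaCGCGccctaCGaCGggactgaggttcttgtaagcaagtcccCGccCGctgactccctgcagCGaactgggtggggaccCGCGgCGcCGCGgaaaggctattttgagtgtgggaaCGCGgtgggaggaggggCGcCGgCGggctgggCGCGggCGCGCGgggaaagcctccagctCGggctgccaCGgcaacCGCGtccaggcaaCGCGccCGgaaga
Dtx1 promoter, chr5:120711620-120711919, minus strand: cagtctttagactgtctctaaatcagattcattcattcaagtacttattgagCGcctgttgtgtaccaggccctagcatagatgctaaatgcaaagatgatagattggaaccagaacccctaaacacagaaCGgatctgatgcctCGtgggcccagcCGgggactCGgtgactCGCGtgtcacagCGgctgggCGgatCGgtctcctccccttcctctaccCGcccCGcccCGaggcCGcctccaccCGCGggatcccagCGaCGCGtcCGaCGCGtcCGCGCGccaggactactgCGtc
These windows hold 6 CpG in Nphs1, 2 in Krt42, 4 in Sfn and 0 in Khdc3, against 30 in Fam81a and 26 in Dtx1.

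Across the 31 matched genes the promoters were mixed, with fewer CpG than those of other expressed genes. The median was 9 CpG per window, with a range of 0 to 46, against a median of 22 in the 8200 other protein-coding genes with at least 5 CPM at day 0 and 7 in all 27018 RefSeq windows. An observed to expected CpG ratio of at least 0.6 was found in 11 of 31 windows (35.5%), against 79.3% of the other expressed genes and 36.5% of all windows. Among genes with 5 to 20 CPM at day 0, the median was 13 in 20 genes of the group and 20 in 2824 others, and the share with a ratio of at least 0.6 was 40% against 70.3%. No test was made of these shares.

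**Figure D1:**
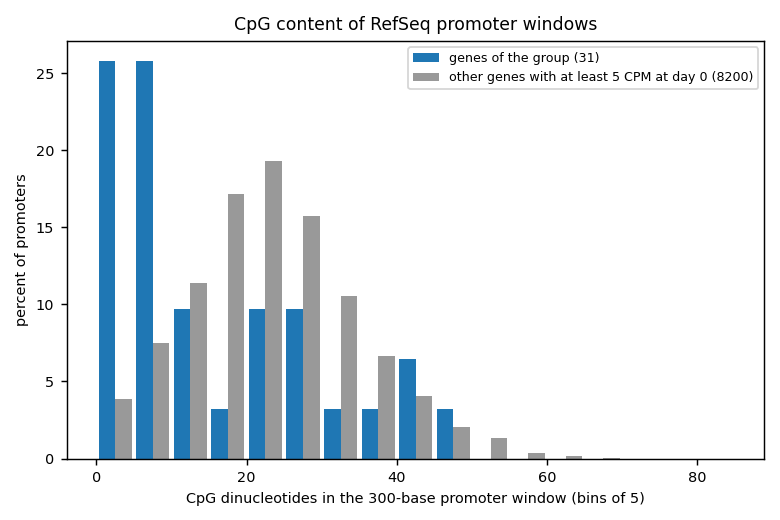
Percent of promoter windows (vertical axis) by the number of CpG dinucleotides in the 300-base window (horizontal axis, bins of 5), for the 31 matched genes of the group and the 8200 other protein-coding genes with at least 5 CPM at day 0. The group has a median of 9 and the other genes a median of 22.

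Short motifs were searched for on both strands of the windows, with N for any base, and no searched motif contains another. The TATA box letters TATAAA were in 6 of the 31 windows (19.4%), against 6.04% of windows of other expressed genes and 14.2% of all windows. These 6 were Cd80, Crtac1, Gm1043, Krt42, Laptm5 and Lrrc2. The letters lay after the RefSeq start in Cd80, Crtac1, Gm1043 and Krt42, and before it in Laptm5 and Lrrc2. The search took them anywhere in the window and on either strand, so no TATA box promoter is inferred from this share. The GC box GGGCGG was in 45.2%, against 68.8% and 35.9%, and 5 motifs of ES cell and signalling factors were each in few windows. The STAT letters TTCNNNGAA were in 9.68% (6.49% and 8.42%), the KLF letters GGGTGTG in 12.9% (8% and 7.90%), the SOX letters CATTGTT in 6.45% (1.63% and 3.86%) and the ESRRB letters AAGGTCA in 3.23% (2.83% and 4.65%). The octamer ATGCAAAT of POU factors was in 0 of 31 windows, against 1.33% and 1.77%. The grainyhead letters AACNGGTT were in the window of Sfn alone among the 31 (3.23%, against 1.78% and 2.02%). A match describes letters, not a bound site.

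The summed level of the 45 genes was 1218 ± 24.7 CPM at day 0, 106 ± 1.17 at day 2, 68.3 ± 5.39 at day 4 and 59.6 ± 3.55 at day 6 (SD, n = 3 libraries each). The median gene stood at 8.34% of its day 0 level at day 2, 5.54% at day 4 and 4.59% at day 6. Of each gene's difference between days 0 and 6, between 89.3% and 108.9% was already there at day 2, with a median of 96.4%. The rule holds this share near 100% for every member, so nothing on timing is read from it. Values over 100% belong to 12 genes that were lower at day 2 than at day 6. The lowest mean fell at day 2 in 6 genes, day 4 in 18 and day 6 in 21. All libraries of the later day lay under all day 0 libraries in 44 genes at day 2, 45 at day 4 and 44 at day 6, where 27.8%, 31.3% and 33.8% of all tested genes did so. Nothing is read from these counts, since the same values chose the genes.

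**Figure D2:**
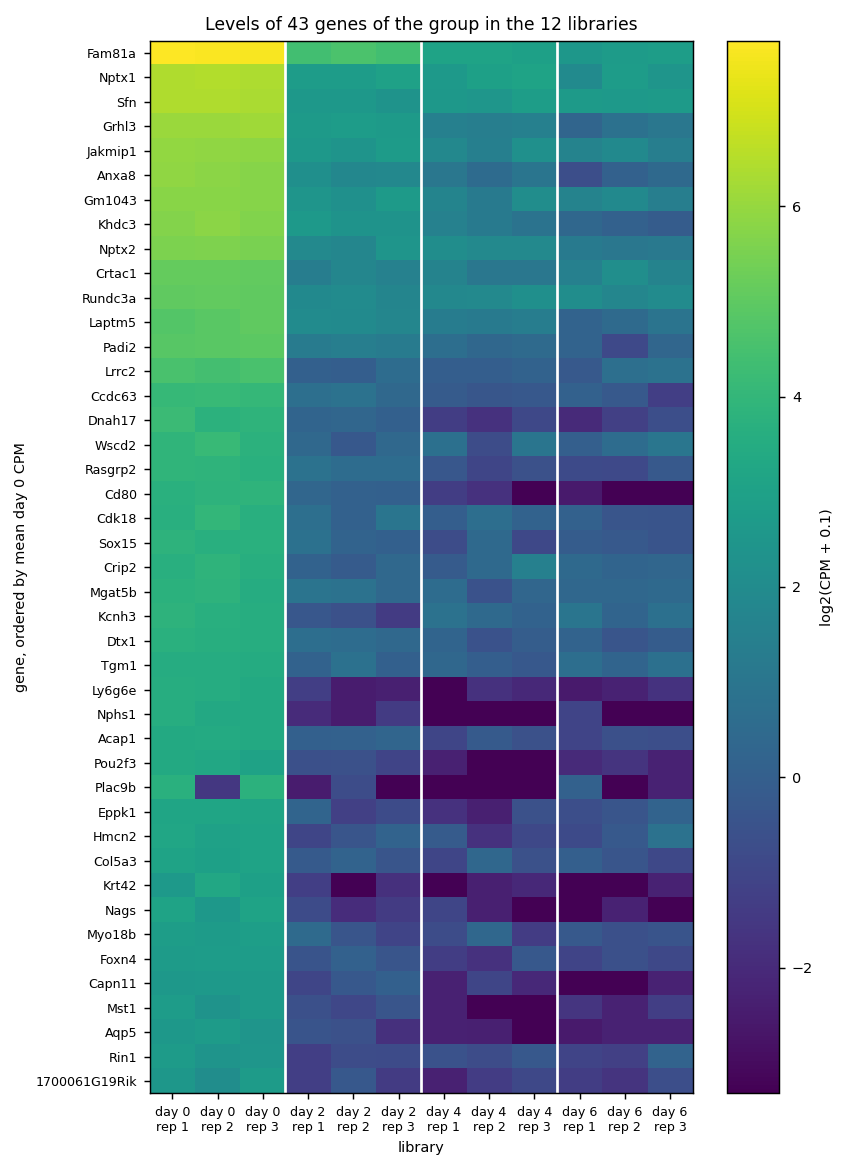
Heat map of 43 genes of the group (rows, ordered by mean day 0 CPM) in the 12 libraries (columns, days 0, 2, 4 and 6 with 3 libraries each), coloured by log2(CPM + 0.1). The step lies between day 0 and day 2 in every row, as the rule requires, and the row of Plac9b has 1 low day 0 library.

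The 3 genes that mark the group are a surface protein, a kidney filter protein and a keratin, and all 3 were close to 0 from day 2 on. Ly6g6e (ENSMUSG00000013766, chr17:35076902-35078804, plus strand, GRCm38) encodes a small surface protein of the Ly6 family. It had 11.9, 11.4 and 10.3 CPM in the day 0 libraries, 0.313, 0.0813 and 0.0944 at day 2, 0, 0.197 and 0.144 at day 4 and 0.0754, 0.109 and 0.211 at day 6. Its day 2 mean was 68.8-fold under day 0. At day 4 it had 3 counts in all, a CPM ratio to day 0 of 0.00985 with an exact 95% counting interval of 0.00202 to 0.0291. Such intervals cover counting error only.

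Nphs1 (ENSMUSG00000006649, chr7:30458315-30487223, plus strand) encodes nephrin, the adhesion protein of the slit diaphragm between kidney podocytes. It had 11.9, 10.02 and 10.3 CPM at day 0, 0.156, 0.0813 and 0.283 at day 2, 0 in all 3 libraries at day 4, and 0.377, 0 and 0 at day 6. With 0 counts it was at least 97.7-fold lower at day 4 than at day 0, against a floor of 3 counts summed over the day 4 libraries. At day 6, 1 library held all of its counts. Krt42 (ENSMUSG00000053654, chr11:100262882-100269871, minus strand), a type I keratin gene, had 6.01, 9.77 and 7.70 CPM at day 0, 0.313, 0 and 0.189 at day 2, 0, 0.0984 and 0.144 at day 4, and 0, 0 and 0.106 at day 6. Its single count at day 6 gives a ratio to day 0 of 0.00406 (0.000102 to 0.0229). For all 3 genes every day 0 library was above every later one.

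Several members are known from stratified epithelium. Sfn (chr4:133600556-133602168, minus strand) encodes 14-3-3 sigma, an epithelial cell-cycle inhibitor and known p53 target. It had 85.3, 84.5 and 79.6 CPM at day 0, 5.79, 5.94 and 5.10 at day 2, 5.79, 5.51 and 7.05 at day 4, and 6.33, 6.00 and 6.44 at day 6. The day 4 libraries overlapped those of days 2 and 6, and all day 6 libraries lay above all of day 2. Per kilobase of exon it was the highest of the group at day 0, at 51.5 CPM per kb. Grhl3 (chr4:135541888-135573630, minus strand), a grainyhead transcription factor needed for the skin barrier and neural tube closure in mouse, stepped down on each later day. It had 66.5, 66.4 and 71.1 CPM at day 0, 6.33, 6.91 and 6.42 at day 2, 2.69, 2.56 and 2.74 at day 4, and 1.13, 1.64 and 2.01 at day 6.

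Tgm1, the transglutaminase that cross-links the cornified envelope, averaged 11.3 ± 0.190 CPM at day 0, 1.20 ± 0.375 at day 2, 0.934 ± 0.243 at day 4 and 1.39 ± 0.265 at day 6 (SD, n = 3), which put it just inside the limit at day 6. Eppk1, a plakin linker of keratin filaments, averaged 8.88 ± 0.205, 0.631 ± 0.409, 0.291 ± 0.252 and 0.746 ± 0.275 CPM at days 0, 2, 4 and 6. Pou2f3, a POU factor of keratinocytes and tuft cells, had 0.0998, 0 and 0 CPM at day 4, a single count, against 10.5, 9.90 and 8.29 CPM at day 0. Padi2, which converts arginine in proteins to citrulline, and Aqp5, a water channel of gland epithelium, averaged 0.884 ± 0.391 and 0.0967 ± 0.0185 CPM at day 6, against 30.02 ± 1.12 and 5.94 ± 0.686 CPM at day 0. Anxa8, a calcium-dependent membrane-binding annexin, had 60.3, 55.8 and 52.9 CPM at day 0, 4.46, 3.41 and 3.49 at day 2, 2.00, 1.38 and 1.87 at day 4, and 0.528, 0.982 and 1.27 at day 6. Anxa8 was thus lower on each later day than on the one before, with no overlap between the days' libraries.

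Genes known from neurons made up another set. Nptx1 (chr11:119538719-119547753) and Nptx2 (chr5:144545902-144557478) encode secreted pentraxins that gather glutamate receptors at synapses. Nptx1 had 85.5, 88.3 and 83.0 CPM at day 0, 6.80, 6.91 and 8.03 at day 2, 6.29, 7.68 and 8.49 at day 4, and 3.84, 6.87 and 5.38 at day 6. Nptx2 had 47.0, 48.2 and 46.1 CPM at day 0, 3.60, 3.25 and 5.38 at day 2, 4.19, 3.54 and 3.60 at day 4, and 2.19, 1.96 and 2.11 at day 6. For both genes days 2 and 4 overlapped, and the day 6 libraries of Nptx2 lay under all of those of day 4.

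Rundc3a, a RUN-domain protein of neurons, had 33.2, 34.1 and 32.7 CPM at day 0, 3.68, 3.90 and 3.21 at day 2, 3.49, 3.64 and 4.46 at day 4, and 4.22, 3.27 and 3.90 at day 6, again with overlap among the later days. Kcnh3, a voltage-gated potassium channel of brain, had 14.1, 12.6 and 11.6 CPM at day 0, 0.704, 0.569 and 0.283 at day 2, 1.70, 1.28 and 1.01 at day 4, and 1.88, 1.09 and 1.58 at day 6, so its lowest point was day 2. Mgat5b, a glycosyltransferase of brain, averaged 12.9 ± 1.52, 1.58 ± 0.307, 1.05 ± 0.413 and 1.22 ± 0.0367 CPM at days 0, 2, 4 and 6. Jakmip1, which binds microtubules and Janus kinases, had 3.02, 3.71 and 2.53 CPM at day 6, against 60.9, 60.4 and 58.2 CPM at day 0. The gene model Gm1043 overlaps it on the same strand and had nearly equal levels, with 2.94, 3.71 and 2.53 CPM at day 6, against 54.2, 55.1 and 53.4 CPM at day 0. In raw counts the day 6 libraries held 40, 34 and 24 for Jakmip1 and 39, 34 and 24 for Gm1043. Whether the 2 share reads was not tested. Both enter every count of the group separately, so they may not be 2 independent members. A further small gene ID also carries the Jakmip1 symbol.

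Members known from blood and immune cells included Laptm5, a lysosomal membrane protein, Cd80, a ligand that co-stimulates T cells, Rasgrp2, an activator of the small GTPase Rap1 in platelets, and Acap1, which switches off the GTPase Arf6. Laptm5 had 27.4, 30.3 and 32.8 CPM at day 0, 3.91, 3.82 and 3.30 at day 2, 2.40, 2.26 and 2.45 at day 4, and 1.06, 1.31 and 1.79 at day 6. Its days did not overlap, and it sat just inside the limit, at 12.2% of day 0 on day 2. Cd80 had 12.9, 14.1 and 14.3 CPM at day 0, 1.17, 0.976 and 0.944 at day 2, 0.299, 0.197 and 0 at day 4, and 0.0754, 0 and 0 at day 6. A single remaining count at day 6 gives Cd80 a CPM ratio to day 0 of 0.00228 (5.77e-05 to 0.0128), the lowest ratio of the group among those with a count. Rasgrp2 and Acap1 averaged 0.542 ± 0.170 and 0.483 ± 0.0926 CPM at day 6, against 14.2 ± 1.19 and 10.6 ± 0.293 CPM at day 0.

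Khdc3 (chr9:73101836-73104438, plus strand), also called Filia, belongs to the maternal protein complex under the surface of mouse eggs and guards genome stability in mouse ES cells. It had 51.0, 56.7 and 49.98 CPM at day 0, 6.02, 4.96 and 5.10 at day 2, 2.79, 2.17 and 1.73 at day 4, and 1.21, 0.982 and 0.844 at day 6, each day under the one before. Sox15, an HMG-box factor related to Sox2, had 14.2, 12.6 and 12.8 CPM at day 0, 1.64, 1.06 and 0.944 at day 2, 0.499, 1.28 and 0.432 at day 4, and 0.829, 0.764 and 0.633 at day 6. Fam81a (chr9:70088511-70142560, minus strand) had the highest day 0 CPM of the group, and 46.4 CPM per kb of exon. Its libraries gave 213, 203 and 195 CPM at day 0, 20.6, 24.6 and 20.8 at day 2, 8.48, 8.46 and 7.77 at day 4, and 5.65, 6.66 and 7.07 at day 6. The same gene had the highest CPM of the group on every later day as well.

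Other members are known from sperm and muscle. Dnah17, a dynein motor of the sperm tail, averaged 0.335 ± 0.189 CPM at day 6, against 15.6 ± 2.56 at day 0. Ccdc63, needed for the sperm tail in mouse, averaged 0.687 ± 0.338 CPM at day 6, against 16.9 ± 0.429 at day 0. Capn11, a testis calpain protease, averaged 0.0352 ± 0.0609 CPM at day 6, from a single count, against 6.17 ± 0.358 at day 0. Myo18b, a myosin of striated muscle, averaged 0.644 ± 0.105 CPM at day 6, against 6.95 ± 0.272 at day 0. The secreted and matrix genes Crtac1 (a cartilage matrix protein), Hmcn2 (a hemicentin) and Col5a3 (a chain of collagen V) averaged 3.31 ± 0.829, 0.968 ± 0.643 and 0.660 ± 0.241 CPM at day 6, against 34.3 ± 0.293, 8.58 ± 0.568 and 8.21 ± 0.469 CPM at day 0. Mst1, which encodes macrophage-stimulating protein, a relative of hepatocyte growth factor, had 1 count at day 4, a ratio of 0.00599 (0.000151 to 0.0339).

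The remaining members serve varied roles. Dtx1, an E3 ligase that regulates Notch, Foxn4, a forkhead factor of the retina, Cdk18, a cyclin-dependent kinase, and Rin1, an effector of Ras, averaged 0.851 ± 0.200, 0.448 ± 0.0873, 0.756 ± 0.194 and 0.587 ± 0.407 CPM at day 6, against 12.2 ± 0.469, 6.73 ± 0.0822, 13.5 ± 1.90 and 5.77 ± 0.693 CPM at day 0. Nags, the enzyme that makes the activator of the urea cycle, had 1 count at day 6, against an average of 7.59 ± 1.54 CPM at day 0, a ratio of 0.00410 (0.000103 to 0.0231). Crip2, a LIM-domain protein, had 0.798, 1.28 and 2.74 CPM at day 4, where it came nearest to the limit at 12.3% of day 0, against 12.3, 14.7 and 12.2 CPM at day 0. Lrrc2, Wscd2 and 1700061G19Rik, named here without a role, averaged 1.32 ± 0.500, 1.41 ± 0.498 and 0.349 ± 0.160 CPM at day 6, against 22.8 ± 1.24, 15.4 ± 1.86 and 5.51 ± 1.22 CPM at day 0.

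Plac9b was the least certain member and was not among the genes tested. Libraries of days 2, 4 and 6 ranged from 0 to 0.980 CPM. Day 0 replicates 1, 2 and 3 had 13.1, 0.247 and 13.6 CPM, so a single day 0 library stood at the later level. With 0 counts at day 4 the gene was at least 83.8-fold lower than the pooled day 0 libraries. That bound leaves out the spread among the day 0 libraries and does not hold against replicate 2. Plac9a, a near-identical copy, had 2.53, 2.103 and 0.829 CPM at day 0, and how reads were split between the copies is not given in the sources used here. In all, 12 of the 45 overlap another protein-coding gene (Jakmip1, Gm1043, Anxa8, Khdc3, Ccdc63, Dnah17, Sox15, Kcnh3, Ly6g6e, Plac9b, Eppk1 and Mst1). Their counts are uncertain to that extent, since counting by strand is not stated.

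**Figure D3:**
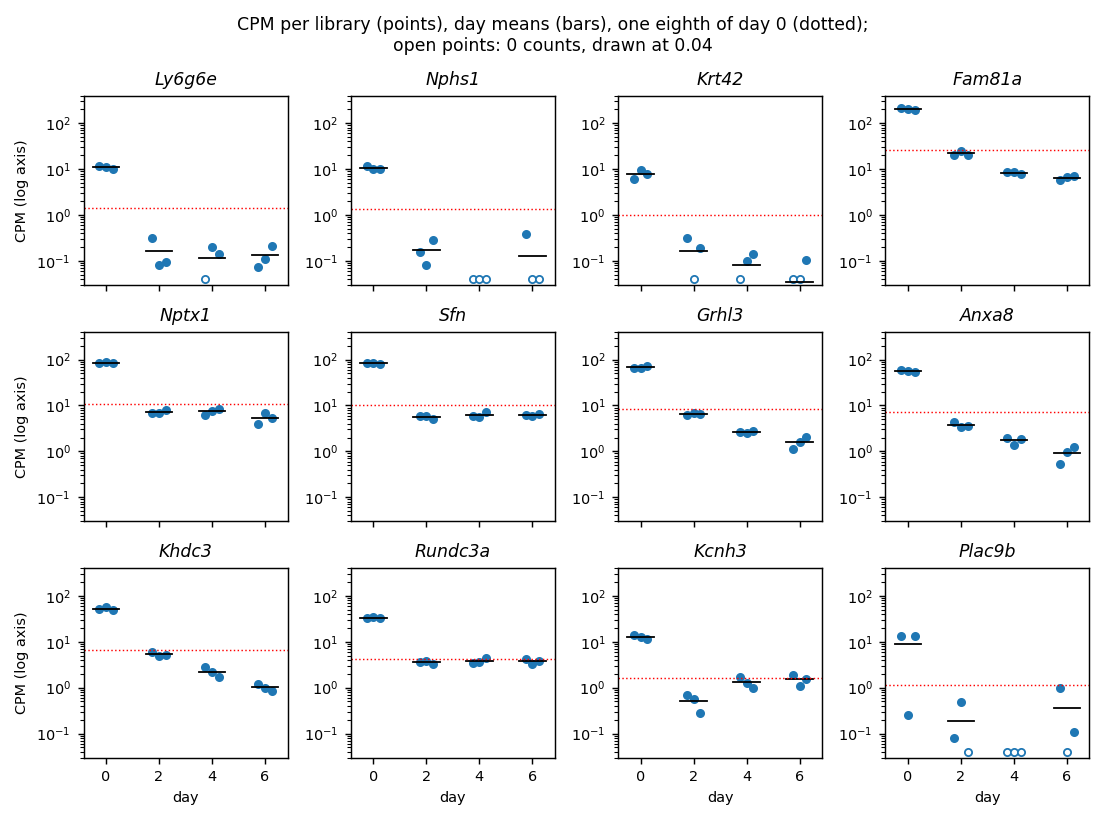
CPM in each library (points) and day means (bars) on a log axis against day for named genes of the group, with 12.5% of the day 0 mean as a dotted line and libraries with 0 counts as open points. Grhl3 and Khdc3 step down on each later day, while Sfn lies between 5.10 and 7.05 CPM from day 2 on.

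The limit divides a continuous range. The members nearest inside it reached at most 12.2% of day 0 (Mgat5b and Laptm5) and 12.3% (Tgm1 and Crip2). The genes nearest outside were Cbs, which makes cystathionine, at 12.6%, then Scn3b, Cfap100 and Mymx at 13.0%, 13.2% and 13.2%. Of the 45, 8 never exceeded 6.25% of day 0 and 17 exceeded 10% on some later day. In absolute terms 27, 19 and 18 members still averaged at least 1 CPM at days 2, 4 and 6, and 16, 27 and 27 had fewer than 30 counts over the 3 libraries of the day, where small differences cannot be detected at this depth.

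The rule bounds the mean of each later day against day 0 but sets no order among days 2, 4 and 6, and differences among these days were tested gene by gene in the fit across 16468 genes, which held 44 of the 45. Since the limit restricts how far a gene could climb back, the counts of higher and lower genes and their medians describe the group, and nothing is read from their distance to the shares over all genes. The first step was day 4 against day 2. By edgeR's quasi-likelihood test with adjusted p under 0.05 over all genes, 18 of 44 were lower at day 4 than at day 2, against 24.8% of all genes, 1 was higher, against 25.3%, and 25 did not pass. The median log2 difference of the 44 was -0.72, beside 0.00 over all genes. When only the 6 libraries of those days were fitted, 10 members were called lower. That fit filtered genes on the 6 libraries alone, so members with few counts on those days could leave it untested. The 10 beside 18 is thus not a count of calls that failed.

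Day 4 against day 2, the clearest decline was that of Fam81a, at 8.24 ± 0.404 CPM at day 4 and 22.0 ± 2.24 at day 2 (log2 -1.40 ± 0.10 SE, edgeR adjusted p = 2.62e-14). Grhl3 fell by 1.30 on the log2 scale (adjusted p = 4.68e-08 by edgeR), Khdc3 by 1.23 (adjusted p = 1.24e-06), Anxa8 by 1.13 (adjusted p = 9.70e-05) and Cd80 by 2.41 (adjusted p = 0.000229). Each was lower in 3 of 3 day 4 libraries than in any day 2 library. Further falls included those of Jakmip1, Gm1043, Laptm5, Padi2, Ccdc63, Dnah17, Rasgrp2, Capn11, Pou2f3, Mst1, Aqp5 and Nphs1. Nphs1 had 0 counts at day 4, and its call (adjusted p = 0.0416) was lost without replicate 1 or 3 of day 2 or without any one day 4 library. Sfn, Nptx1, Nptx2 and Rundc3a had log2 differences between -0.08 and 0.10, with SE of 0.14 to 0.18, and did not pass.

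Kcnh3 was the only one of the 44 called higher at day 4, at 1.33 ± 0.347 CPM at day 4 and 0.519 ± 0.215 at day 2 (log2 1.34 ± 0.39 SE, edgeR adjusted p = 0.00398). Some others had higher means at day 4 without passing. It was higher in 3 of 3 libraries, and at day 6 it was still higher than at day 2 (log2 1.56 ± 0.36, adjusted p = 0.000277). Without replicate 1 of day 4, 2 genes instead of 1 were called higher. Kcnh3 overlaps Mcrs1, whose own change from day 0 to day 2 did not pass the edgeR test (log2 0.12 ± 0.06, adjusted p = 0.0712). Mcrs1 averaged 57.2 CPM at day 2, 51.0 at day 4 and 51.8 at day 6. Whether its reads enter the rise of Kcnh3 after day 2 was not tested.

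For day 6 against day 4, 8 of 44 passed. By the same test 7 of 44 were lower at day 6, against 19.3% of all genes, 1 was higher, against 23.6%, and 36 did not pass, with a median log2 difference of -0.01 beside 0.02 over all genes. The 7 were Khdc3 (log2 -1.11 ± 0.29 SE, edgeR adjusted p = 0.00162), Nptx2 (-0.83 ± 0.22, adjusted p = 0.00206), Grhl3, Anxa8, Laptm5, Nptx1 and Fam81a. Without replicate 1 of day 6 only 2 of the group were called lower. Eppk1, the plakin, was the gene called higher, at 0.746 ± 0.275 CPM at day 6 and 0.291 ± 0.252 at day 4 (log2 1.46 ± 0.59, adjusted p = 0.0428). It was not called in 4 of the leave-one-out fits, without replicates 1 and 2 of day 4 or 2 and 3 of day 6, nor by DESeq2 (adjusted p = 0.0617), and its libraries on those days overlapped.

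Over the whole low phase, day 6 against day 2, 21 of 44 were lower, against 31.2% of all genes, 1 (Kcnh3) was higher, against 32.4%, and 22 did not pass, with a median log2 difference of -0.76 beside 0.00 over all genes. Khdc3 fell by 2.34 on the log2 scale (edgeR adjusted p = 7.31e-12), Anxa8 by 2.07 (adjusted p = 7.76e-09), Grhl3 by 2.06 (adjusted p = 2.47e-12), Fam81a by 1.76 (adjusted p = 1.93e-17) and Laptm5 by 1.42 (adjusted p = 1.20e-06). Cd80 fell by 4.55 (adjusted p = 6.09e-07) and Capn11 by 3.94 (adjusted p = 7.45e-05), both to a single count at day 6, so that the sizes are uncertain. Cdk18, Acap1 and Nags passed the test in this comparison but in neither shorter one, and whether their differences change between the comparisons was not tested. In total 25 of the 44 were called in at least 1 of the 3 comparisons and 19 in none, Ly6g6e, Krt42, Sfn, Crtac1 and Rundc3a among the 19. For Ly6g6e and Krt42 the SE of these differences was 0.83 to 1.48 on the log2 scale, since few counts remained.

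**Figure D4:**
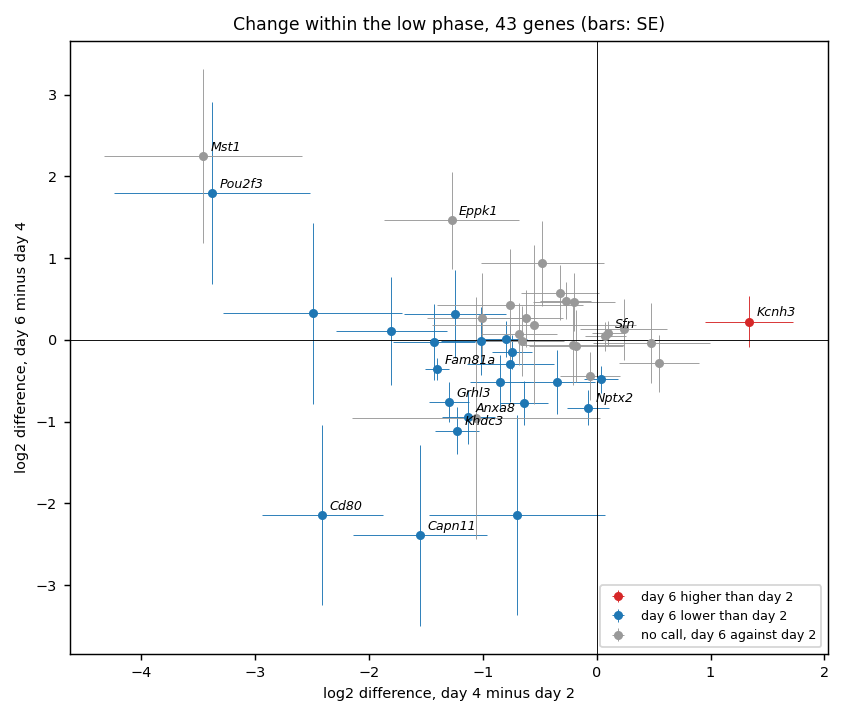
Log2 difference day 6 minus day 4 (vertical) against day 4 minus day 2 (horizontal) for 43 genes, with SE as bars and colour by the call of day 6 against day 2. Nphs1, with 0 counts at day 4, is not drawn. Most points lie left of 0, Grhl3, Khdc3 and Anxa8 lie lower left with falls in both steps, and Kcnh3 stands alone at the right.

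Close relatives of the members, listed once the members were known, moved in both directions. Of 109 listed relatives outside the group, 84 were tested. At day 2 against day 0, 37 were lower, 24 were higher, and the median log2 difference was -0.14, where 33.2% of all genes were lower and 34.9% higher. Scaling by library size alone moved the median of all genes by 0.13 at day 2 against day 0 and gave 32 relatives lower and 32 higher, with 4412 of all 16468 genes lower and 7053 higher. At day 6 against day 0, 32 were lower and 35 higher, where 37.5% and 39.4% of all genes were. The neuronal pentraxin receptor gene Nptxr stood at 9.35 ± 0.193 CPM at day 2 and 9.51 ± 1.64 at day 0 and did not pass (edgeR adjusted p = 0.295).

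Among the grainyhead genes Grhl1 fell by 0.70 and Grhl2 by 0.87 on the log2 scale at day 2 against day 0 (edgeR adjusted p = 1.37e-05 and 5.17e-05), and Grhl2 was not called at day 6. Of 9 tested annexins outside the group, 3 were lower at day 2 (Anxa1, Anxa2 and Anxa6), 3 were higher (Anxa3, Anxa4 and Anxa5) and 3 did not pass. Anxa6 averaged 71.5 CPM at day 2 and 142.9 at day 0 (log2 -1.13 ± 0.06 SE, adjusted p = 5.78e-20). Anxa3 was at 16.9 ± 0.523 CPM at day 2 and 4.59 ± 1.06 at day 0 (log2 1.73 ± 0.14, adjusted p = 4.31e-14). Tgm2 rose at day 2 (log2 0.88 ± 0.09, adjusted p = 3.47e-11) and stood at 102 ± 7.23 CPM at day 6 and 13.5 ± 0.413 at day 0. Of the deiminase genes related to Padi2, Padi3 fell by 2.13 and Padi4 by 2.24 at day 2 (adjusted p = 1.13e-10 and 2.59e-12), and Padi1 and Padi6 were not tested. Ooep, another gene of the maternal egg complex of Khdc3, fell by 1.02 (adjusted p = 4.71e-13), whereas Tle6 did not pass and Zbed3 rose by 1.46 (adjusted p = 5.10e-16).

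The wider gene lists show the setting, beside 33.2% of all genes lower and 34.9% higher at day 2 against day 0. At day 2 against day 0, 16 of 17 naive pluripotency genes were lower (median log2 -1.47). Tcl1, which meets the limits of the group, is one of the 17. Also lower were 12 of 16 general pluripotency genes (-1.03), 12 of 15 genes of LIF and STAT3 signalling (-1.53) and 14 of 15 p53 targets (-0.88), Sfn included. Zfp42 is counted in both pluripotency lists, and Klf4 in the naive and the LIF and STAT3 lists. Of the p53 targets, Cdkn1a fell by 1.87 and Mdm2 by 0.64. All 14 primitive endoderm genes were higher (median 2.44). Of 8 tested keratins, Krt42 included, 3 were lower and 3 higher, with Krt8 up by 1.54 and Krt18 by 1.35. Of 23 genes of epithelial junctions 13 were lower and 6 higher, of 10 Ly6 family genes 5 lower and 3 higher, Ly6g6e included, and of 9 podocyte genes 3 lower and 5 higher, Nphs1 included. Among podocyte genes Synpo, Podxl and Cd2ap rose by 1.09, 0.40 and 0.29. At day 4 against day 2, 3 of the LIF and STAT3 genes were lower and 8 higher (median 0.41), and 13 of 17 naive genes were lower and 2 higher, where 24.8% of all genes were lower and 25.3% higher.

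Genes next to the members were often lower too. The nearest protein-coding gene on each side that does not overlap the member gave 88 neighbours outside the group, of which 65 were tested. At day 2 against day 0, 39 of them (60%) were lower and 13 higher, with a median log2 difference of -0.47, where 33.2% and 34.9% of all genes were, with a median of 0.02. Library size alone gave 33 lower and 16 higher, with a median of -0.34 where that of all genes was 0.15. A fitted fall of at least 8-fold was found in 7 (10.8%), against 0.966% of all tested genes. Day 6 against day 0 gave 35 lower and 20 higher, where 37.5% and 39.4% of all genes were, with 6 of at least 8-fold (9.23%), against 2.42% of all genes. These neighbours were not chosen for their own change, but Tdgf1 is among the 7 and meets the limits of the group.

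Kirrel2, whose product is a nephrin-like adhesion protein, lies 624 bases from Nphs1 on the opposite strand. It had 0, 0 and 0.0944 CPM at day 2, against 3.796, 4.45 and 3.91 CPM at day 0, a ratio of 0.00694 from a single count (95% counting interval 0.000174 to 0.0395), and stayed at 1 count on days 4 and 6. Its level at day 0 kept it out of the group. Krt17, a keratin 1852 bases from Krt42, had 0.156, 0.163 and 0.0944 CPM at day 2, against 3.48, 3.34 and 4.86 CPM at day 0 (log2 -4.80 ± 0.44 SE, edgeR adjusted p = 1.83e-12). Around Ly6g6e, Ly6g6d, which overlaps it, and Ly6g6c, 6851 bases away, fell by 4.64 and 3.25 on the log2 scale (adjusted p = 7.30e-11 and 2.29e-09). At all 3 marker loci a related neighbouring gene was thus called lower at day 2, and reads shared between such neighbours were not tested.

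Tdgf1, the Nodal co-receptor, lies 5386 bases from Lrrc2 and fell by 5.43 (adjusted p = 3.67e-42). Socs3, the feedback inhibitor of LIF signalling, lies 51675 bases from Dnah17 and fell by 4.88 (adjusted p = 4.17e-34). Oas2 and Mymx, beside Dtx1 and Capn11, complete the 7, with 2 counts left for Oas2 at day 2. Rasal1, 604 bases from Dtx1, Crip1, 809 bases from Crip2, and Ass1, 9468 bases from Hmcn2, fell by 2.45, 2.67 and 2.66. Not all neighbours followed: Crmp1, 12392 bases from Gm1043, rose by 3.57 (adjusted p = 9.33e-18).

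**Figure D5:**
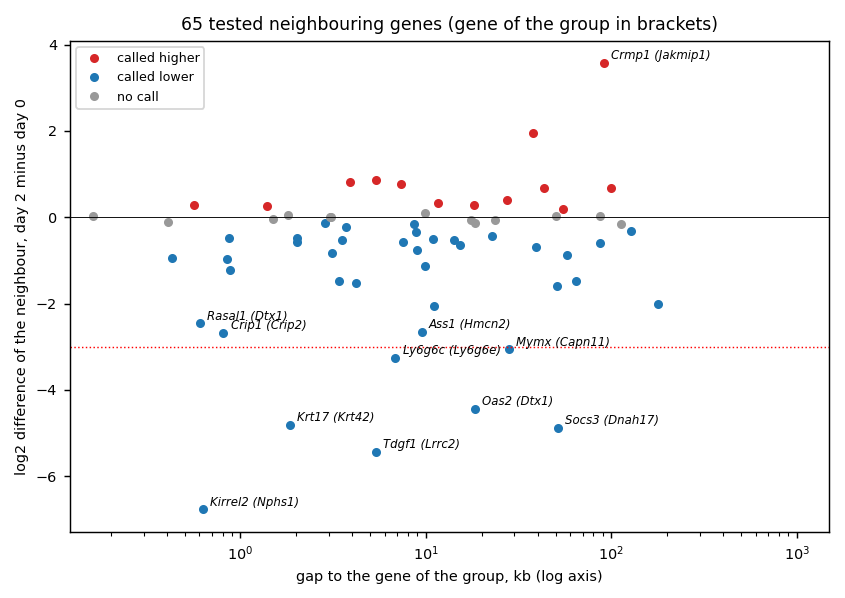
Fitted log2 difference day 2 minus day 0 of the 65 tested neighbours (vertical) against their distance from the gene of the group in kb (log axis), coloured by call, with an 8-fold fall as a dotted line. The 7 points under the line include Kirrel2 next to Nphs1 and Krt17 next to Krt42. Crmp1, a neighbour of both Jakmip1 and Gm1043, is drawn at its distance from Jakmip1, 91332 bases.

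The members lie on 13 chromosomes. Of the 45, 8 were on chromosome 11 and 8 on chromosome 5 (17.8% each), where 8.26% and 6.57% of expressed protein-coding genes lie. Chromosome 9 held 6 (13.3%), against 5.75%, and the X held none, against 3.16%. Jakmip1 and Gm1043 overlap and are counted separately among the 8 on chromosome 5. Sox15 and Acap1 are 224.8 kb apart, Nags and Rundc3a 243.9 kb, and Kcnh3 and Aqp5 348.0 kb. Myo18b and Wscd2 are 594.0 kb apart, and Wscd2 and Foxn4 664.4 kb. Other pairs found were 1034.8 to 1939.7 kb apart.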

How the data were processed

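Polyadenylated RNA of 12 mouse ES cell libraries (3 at each of 4 days) was measured. The authors deposited raw counts per gene, made per the submitters' processing notes on the mm10 genome with tools that include HISAT2 2.1.0, FastQC 0.11.7 and featureCounts 2.0.1 (DESeq2 is also named), their roles and order not given; strandedness, treatment of reads with several positions and annotation release are not given in the sources used here. CPM was computed from the deposited counts on column totals. Of 55335 gene IDs, 55154 matched GENCODE M21 (GRCm38), which gave positions and exon lengths.

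Counts were tested in R 4.3.3 with edgeR 4.0.16: filterByExpr by day (16468 genes kept), TMM scaling, and a quasi-likelihood fit with 1 coefficient per day over the 12 libraries, two-sided, with Benjamini-Hochberg adjustment over all genes and a threshold of 0.05. SE were recovered from the test statistic. The procedure was run on simulated data, with changes placed only in genes above a minimum mean count. Genes with few counts on the later days were not checked separately, and nothing is read from it for them. Ratios with 1 to 3 counts carry exact 95% counting intervals, and folds against 0 counts use a floor of 3 counts. Replicates differed by more than sampling noise (chi-square per degree of freedom 1.51 to 3.796). Alternatives were other scalings (median-ratio factors, library size alone), filters and limits, DESeq2 1.42.0, a replicate block, a fit to 6 libraries and each library left out. 2 scalings of the comparison with day 0 were added after seeing the data. Figures used Python 3.11.15 and matplotlib 3.10.9.

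The members, gene lists and relatives were chosen with earlier results of these data known. Values per library are given for the 3 markers, the 12 members highest at day 0, the 4 lowest by ratio, the 4 nearest the limit and the 4 with the smallest p in each direction and comparison; other genes are named by role. Values of 2 members and of some relatives are not reported here, and the counts include them.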

Additional observations from a re-analysis of the deposited data

How the results depend on the processing

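How many genes the rule takes depends on its limits. A limit of 25% of day 0 gave 188 genes and 6.25% gave 8, a day 0 minimum of 1 CPM gave 83 and 20 CPM gave 15, and requiring the highest later library to lie within the limit of the lowest day 0 library gave 22. Leaving out single libraries gave 43 to 50, with 35 members in all 12 sets, and TMM-scaled CPM gave 56, including all 45. Lower at day 4 than at day 2 were 18 members, 10 in the fit to the 6 libraries and 15 to 18 without single libraries; higher were 1, and 1 to 2 without single libraries. Lower at day 6 than at day 4 were 7, 2 at an adjusted p under 0.01 and 2 to 8 without single libraries, the lowest without replicate 1 of day 6. Higher at day 6 than at day 4 was 1 (Eppk1), and 0 with no filter, with the replicate block, in the fit to the 6 libraries, with DESeq2 and at an adjusted p under 0.01, and 0 to 3 without single libraries. Each fit to 6 libraries filtered genes anew, so members with few counts could leave it untested rather than lose a call. At an unadjusted p under 0.05, 12 members differed between those days. For day 6 against day 2 the counts without single libraries were 16 to 21 lower and 1 higher. The causes were not tested.

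Replicate numbers in the labels do not show a pairing. Deviations of same-numbered libraries of different days correlated at -0.081 to 0.103, and those of differently numbered libraries at -0.139 to 0.114. With the replicate block, 18, 7 and 20 members were lower in the 3 comparisons of later days. Single-gene results were recomputed for 27 calls, all of genes with values given per library, which include the calls with the smallest p. Of these 538 recomputed results 504 kept their call, 34 lost it and 0 reversed. The other calls, many of them weaker, are not in this tally. Scaling by library size alone moved the median of all genes by -0.03 to -0.004 on the log2 scale in the comparisons of later days, and by 0.10 to 0.13 in those with day 0. That scaling of the day 0 comparisons was chosen after seeing the data. Low counts limit the later days most.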

Other observations

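2 genes of other types met the same limits on level. Tdgf1-ps1, a processed pseudogene of Tdgf1, averaged 27.5 CPM at day 0, 0.633 at day 2, 0.805 at day 4 and 2.59 at day 6, and reads taken from Tdgf1 were not tested. Ptprv, listed as a polymorphic pseudogene, averaged 10.02 CPM at day 0, 0.699 at day 2, 0.557 at day 4 and 0.429 at day 6.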
